A study of Mus musculus with 11 samples.

Results

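The transcriptome of the tibialis anterior of old mice that had been injected with saline was described from 4 of the 11 libraries of the study. The libraries were chosen by their label alone: they are the ones whose injection was saline, numbered 2, 3, 4 and 6 by the submitters, and no measured value entered the choice. The study sequenced RNA from skeletal muscle of aged animals given saline, serum of young animals, or young serum from which extracellular vesicles had been removed, and no treatment is compared here. The saline group consisted of C57BL/6 mice aged 21 to 24 months; the tissue was the tibialis anterior and total RNA was extracted. The labels refer to an animal injury model, without a time after injury for any library, and they give no sex and no genetic alteration and do not say whether the libraries come from separate animals. The spread between the 4 libraries therefore cannot be divided into differences between animals and differences between preparations. Values were available for 18269 genes as CPM, read counts scaled so that the values of each library sum to 1000000. In what follows, 4 values in a row belong to replicates 2, 3, 4 and 6 in that order, and an error is the SD over the 4 libraries (n = 4). With 1 group there is nothing to test, so every statement below is a description without a p-value.

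The tibialis anterior lifts the foot and is built almost wholly of fast-twitch fibres, which contract quickly and draw their ATP mainly from glycogen, glycolysis and phosphocreatine. Fast and slow fibres carry different isoforms of most sarcomere proteins: myosin heavy and light chains, troponins, and the pump and buffers that clear calcium. Around the fibres lie capillaries, nerve, resident immune cells, fibro-adipogenic progenitors, which lay down matrix and can become fat cells, and satellite cells, the stem cells that rebuild fibres after injury.

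The depth read from the smallest steps of the values was 39376000 to 42298000 reads per library, and 17439 to 18002 genes were above 0. A mean of at least 1 CPM was reached by 13114 genes, and the spread was described over these. Defining markers of fast muscle were at the top in each library, whereas none of the 3 markers of liver, brain and kidney with a value and none of the 5 neutrophil markers with a value reached a mean of 1 CPM, so the marker levels were those of fast muscle. Skin markers were also found: Krt5, the keratin of basal skin cells, was at 0, 0, 34.5 and 10.2 CPM, which is 0 in replicates 2 and 3 and above 0 in replicates 4 and 6. Libraries 4 and 6 also stood apart from the others over many genes, as described below, and the main counts that rest on them are given with and without them.

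Few genes took most of the reads. On mean CPM, 11 genes held 25% of all reads, 86 genes held 50% and 3525 genes held 90%. The number of genes needed for 50% was 67, 53, 127 and 96, so the reads were spread over more genes in replicate 4 than in the other 3 libraries. The 10 highest genes took 24.7% and the 30 highest took 40.4%. Protein-coding genes held 86.3% ± 0.460 of the CPM and genes annotated as pseudogenes held 11.6% ± 0.720. CPM counts reads and not molecules, so a long gene ranks higher than a short one with as many transcripts, and levels of different genes are compared below after division by exonic length and rescaling to a sum of 1000000 per library (length-scaled values), except that a pseudogene and the gene it copies are also compared by their reads.

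The contractile apparatus of the fast fibre led the ranking. Myh4, the myosin heavy chain of the fastest fibres (type IIB), had the highest mean, with 54805, 49619.7, 45243 and 29701 CPM. It took more reads than any other gene in replicates 2, 3 and 4, and fewer than Ckm and Acta1 in replicate 6. Acta1, skeletal alpha-actin of the thin filament, stood at 34479, 38992, 26113 and 30353 CPM and Tnnt3, the fast troponin T, at 18388, 23517, 16303 and 18451 CPM. Their spread was small beside their level, with the highest library 1.49 and 1.44 times the lowest (folds here and below are on CPM + 1). Among the regulatory proteins, Tpm1 (tropomyosin) averaged 18634 ± 2989.9 CPM, Tnnc2 (fast troponin C) 13409 ± 1987 CPM and Tnni2 (fast troponin I) 12889 ± 3184 CPM. Scaled by exonic length, Acta1 was the highest protein-coding gene (length-scaled value 37963), followed by Tnnc2 (32191), Tnnt3 (27711) and Tnni2 (24581), while Myh4 came to 12778. The giant proteins showed the reverse: Ttn, the molecular spring titin, took 5124 ± 2029 CPM, against a length-scaled value of 78.1.

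Together, the 59 genes of the fast, slow and common sarcomere lists held 21.95% ± 2.47% of the CPM, at 23.4, 24.5, 19.05 and 20.9%. Mylpf, the fast regulatory light chain, differed more between libraries than Acta1 and Tnnt3, at 8774, 9969.7, 6299.6 and 15985 CPM (2.54-fold), with replicate 6 highest and replicate 4 lowest. Ttn went the other way, at 6685, 6071, 5583 and 2157 CPM, and Neb, the thin-filament ruler nebulin, at 4221, 2874, 2840.2 and 1328 CPM, both lowest in replicate 6. In the common sarcomere and Z-disc list, 8 of 32 genes differed at least 2-fold between the highest and the lowest library, a share near the 27.1% of all genes, and 1 did without replicate 6, when 15.9% of all genes did.

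**Figure D1:**
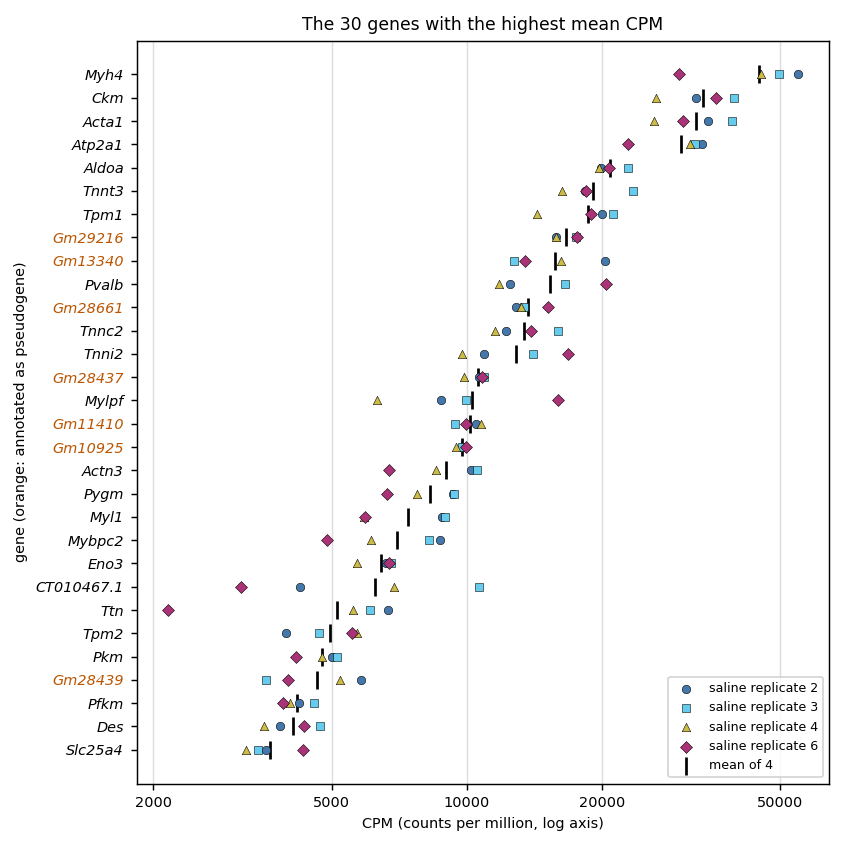
CPM of the 30 genes with the highest mean in the 4 saline libraries, on a log axis, with 1 symbol per library and a bar at the mean of 4; names in orange are annotated as pseudogenes. The symbols lie close together for Aldoa (highest library 1.16 times the lowest), while Ttn is lowest in replicate 6 (2157 CPM) and Mylpf is highest there (15985 CPM).

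Of the 30 highest genes, 7 were pseudogenes, and all 7 were copies of mitochondrial genes. No gene encoded by the mitochondrial chromosome was among the genes of the table. Instead, 13 pseudogenes with a mean of at least 10 CPM had a mitochondrially encoded protein gene as their closest match among coding transcripts, and they took 9.14% ± 0.421% of the CPM (9.69, 8.66, 9.11 and 9.11%). They matched 11 of the 13 protein genes of the mitochondrial chromosome; mt-Atp8 and mt-Nd1 had no such copy. These copies are stretches of mitochondrial DNA that became inserted into nuclear chromosomes. Several lie side by side: Gm28661 (chr1:24614885-24615565, minus strand, build mm10) and Gm28437 (chr1:24613189-24613971, minus strand) are parts of 1 stretch on chromosome 1. Gm28661 was identical to mt-Co2, which encodes subunit 2 of cytochrome c oxidase, over its whole length. Their first 60 bases are shown because they cannot be told apart by any read that lies inside them.
Gm28661: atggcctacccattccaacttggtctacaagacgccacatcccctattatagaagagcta
mt-Co2: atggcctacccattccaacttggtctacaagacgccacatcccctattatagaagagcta
Other copies had diverged. Gm13340 (chr2:22588103-22589647, minus strand) matched mt-Co1, the largest catalytic subunit of the same enzyme, at 97.6% of its bases. The window of bases 460 to 519 is shown because no other window of 60 bases holds more differences, with the 4 differing bases in capitals.
Gm13340: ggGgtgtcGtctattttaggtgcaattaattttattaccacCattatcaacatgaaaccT
mt-Co1: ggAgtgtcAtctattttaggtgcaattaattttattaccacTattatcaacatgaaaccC
All 4 sequences are read 5′ to 3′ along the transcript from the GENCODE M21 transcript set for the same build.

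Some of these copies had nearly equal CPM in the 4 libraries and others did not. Gm10925, identical to mt-Atp6, a subunit of ATP synthase, stood at 9879, 9747, 9469 and 9965 CPM. Gm28437, identical to mt-Co3, stood at 10631, 10932, 9867 and 10842 CPM. Others differed more between libraries: Gm13340 was at 20367, 12767, 16193 and 13473 CPM and Gm28439, identical to mt-Nd4 over 876 bases, at 5806, 3573, 5216 and 3987 CPM, both highest in replicate 2 and lowest in replicate 3. The widest ranges were those of Gm10222, at 1334, 505, 1129 and 589.8 CPM, and Gm4076, closest to mt-Nd5, at 2829, 1315, 1911 and 1152 CPM, again highest in replicate 2. The evenness of Gm10925 held on the CPM scale: its SD of log2(CPM + 1) was 0.03, but 0.21 after median-of-ratios scaling, which equalises the libraries at the median gene. On the length-scaled measure, Gm29216, which matches mt-Co1 at 99.8% of its bases, was the highest of all genes (57045). How reads that fit more than 1 place were counted is not stated in any label or header used here, so the source of these reads, nuclear or mitochondrial, was not tested.

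Nuclear genes showed a smaller version of the same pattern. A further 223 pseudogenes with a mean of at least 10 CPM had a nuclear coding gene as their closest match, 55 of them with no mismatch in the aligned stretch. They held 1.98, 1.98, 2.09 and 3.21% of the CPM, highest in replicate 6. In 91 pairs the copy had more reads than the gene, and in 129 it had more per base of transcript. Ribosomal protein genes, whose short transcripts are often copied back into the genome, were closest to 83 of the pseudogenes. In 53 of those 83 pairs the copy had more reads (62 per base of transcript), at a median of 1.62 times the reads of the gene. The cutoff of 10 CPM was applied to the copies and not to their genes. The counts and the median of these pairs therefore carry a selection toward the copy. The 83 pairs also hold only 60 different genes. The ribosomal copies together took 0.968% ± 0.409 of the CPM and their genes 0.842% ± 0.508. As examples chosen after their values were seen, Rpl12 had a mean of 4.16 CPM and Rpl5 one of 4.75 CPM, while a copy of each stood at 281 and 305 CPM. Values of single ribosomal protein genes are therefore uncertain, as are those of Gapdh, at 1545 ± 252 CPM, whose nearest copy had 2909 CPM.

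**Figure D2:**
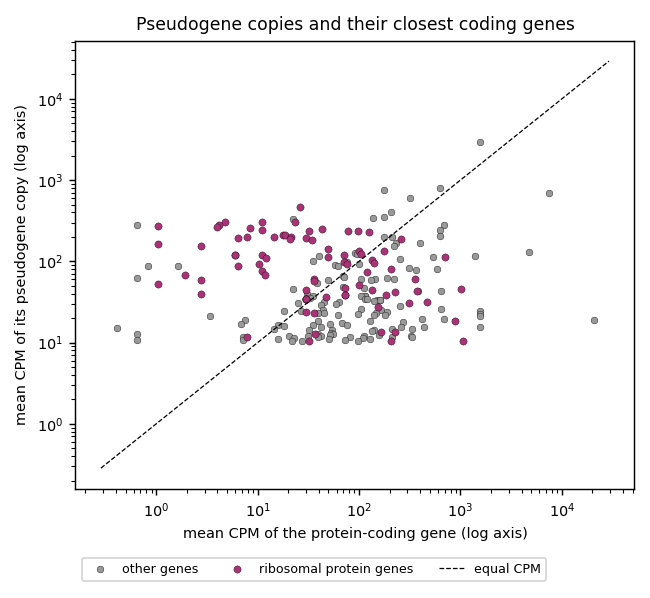
Mean CPM over the 4 saline libraries of each pseudogene closest to a nuclear coding gene (vertical, log axis) against that gene (horizontal, log axis), each point 1 pseudogene with a mean of at least 10 CPM; the dashed line marks equal CPM and ribosomal protein genes are coloured. Of the 83 pseudogenes closest to ribosomal protein genes, 53 lie above the line. The cutoff was applied to the pseudogenes and not to the genes, which favours points above the line.

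Energy supply was the next large function. The glycolysis, glycogen and phosphagen lists (39 genes) held 10.2% ± 0.904% of the CPM. Ckm, the muscle creatine kinase that refills ATP from phosphocreatine, ranked below only Myh4, with 32501, 39378, 26503 and 35909 CPM. Aldoa, the aldolase of glycolysis, was at 19919, 22872, 19707 and 20799 CPM, with the highest library 1.16 times the lowest. Glycolysis was among the steadiest functions, with a median fold of 1.24 against 1.62 over all 13114 genes. In its list 1 of 18 genes differed at least 2-fold, against 27.1% of all genes. That gene was Pfkfb3, which makes the activator of phosphofructokinase, at 299, 297, 244 and 147 CPM, lowest in replicate 6. Ldha, the lactate dehydrogenase of fast fibres, stayed within 3291 to 3416 CPM. Enolase (Eno3, 6448 ± 512 CPM), pyruvate kinase (Pkm, 4762 ± 439 CPM) and phosphofructokinase (Pfkm, 4178 ± 285 CPM) had wider ranges.

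The glycogen list had a median fold of 1.57, near that of all genes. Pygm, muscle glycogen phosphorylase, was at 9340.4, 9388, 7761 and 6631 CPM. Subunits of the kinase that switches it on, Phka1 (1176, 952, 955 and 571 CPM) and Phkb (597, 434, 401 and 257 CPM), were highest in replicate 2 and lowest in replicate 6. Among the 13 genes of the glycogen list, 4 differed at least 2-fold, near the 27.1% of all genes. None did without replicate 2 (22.2% of all genes), without replicate 6 (15.9%), or after centring each library by gene length (18.4%), a step explained below.

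Calcium handling and excitation took 6.10% ± 0.429% of the CPM in 24 genes. Atp2a1, the pump that returns calcium to the sarcoplasmic reticulum of fast fibres, was at 33501, 32379, 31549.6 and 22892 CPM, lowest in replicate 6. Pvalb, the calcium buffer parvalbumin that speeds relaxation, was at 12459.6, 16601, 11779.6 and 20475 CPM, highest in replicate 6. Casq1, which stores calcium, was steady at 3437 ± 286 CPM, whereas Ryr1, the release channel, was at 3878, 3137, 3088 and 1684 CPM. The most variable member was Mss51, a gene tied to muscle mitochondrial metabolism, at 269, 343, 46.7 and 213 CPM: replicate 4 lay well below the other 3. Of the genes of the neuromuscular junction, 2 of 13 differed at least 2-fold, against 27.1% of all genes. Chrna1, a subunit of the acetylcholine receptor, was at 20.8, 20.8, 15.3 and 21.4 CPM, and Musk, the kinase that organises the junction, at 17.5, 7.95, 8.38 and 7.45 CPM, highest in replicate 2. Of the ubiquitin ligases that act in atrophy, Fbxo32 was at 382, 307, 279.7 and 196 CPM and Trim63 at 204, 223, 156 and 136 CPM.

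Fibre type separated 1 library from the rest. On the length-scaled measure, Myh4 made up 96.2, 96.5, 96.8 and 85.4% of the adult myosin heavy chains, so replicate 6 was lowest. Myh7, the slow (type I) chain, made up 0.0816, 0.0801, 0.138 and 2.59%, Myh1 (type IIX) 1.71, 2.53, 2.15 and 5.98% and Myh2 (type IIA) 2.02, 0.862, 0.864 and 6.03%, all highest in replicate 6. Other slow isoforms followed: Tnni1 was 0.0574, 0.0576, 0.0852 and 1.76% of troponin I, Tnnc1 0.0676, 0.0704, 0.146 and 2.48% of troponin C and Atp2a2 0.302, 0.113, 0.190 and 1.69% of the 2 calcium pumps. Fast isoforms still made up at least 97.3% of each troponin in all 4 libraries.

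All 15 genes of the slow fibre list differed at least 2-fold, against 27.1% of all genes, and all 15 were highest in replicate 6, against 18.3% of all genes. Tnni1, the slow troponin I, was at 9.18, 11.8, 12.1 and 441 CPM, Myl2, the slow regulatory light chain, at 55.4, 40.1, 27.7 and 1139 CPM, and Myl3, the slow essential light chain, at 146, 42.5, 30.8 and 1159 CPM. Myh7 was at 48.8, 43.2, 67.8 and 944 CPM. In each of these genes replicate 6 was higher than the other 3, and for Myl3 replicate 2 also lay above replicates 3 and 4. After length centring all 15 were still highest in replicate 6 (25.9% of all genes were) and 14 still differed at least 2-fold (18.4% of all genes did). Without replicate 6, 7 of 15 differed at least 2-fold, against 15.9% of all genes. In bulk tissue, fewer cells of a type and less RNA per cell cannot be told apart, here and for every cell type below.

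Oxidative metabolism was also highest in replicate 6. The 5 mitochondrial lists held 4.84% ± 1.33% of the CPM, at 4.21, 4.16, 4.16 and 6.84%. Of the complex I genes, whose products pass electrons from NADH, 36 of 37 were highest in replicate 6 (18.3% of all genes were). Of these 37, 16 differed at least 2-fold (27.1% of all genes did). Of the genes of complexes II to V, 35 of 38 were highest there and 21 differed at least 2-fold. None of these genes differed 2-fold without replicate 6, a change that 15.9% of all genes still showed. Length centring left 30 of 37 and 32 of 38 highest in replicate 6, against 25.9% of all genes, and 10 and 17 at least 2-fold apart, against 18.4%. With 50 length bins in place of 5, 28 and 29 were highest in replicate 6 (25.7% of all genes were) and 8 and 17 differed at least 2-fold (18.1% did).

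The members did not move evenly. Ndufb8, a small membrane subunit of complex I, was at 323, 356, 319 and 2065 CPM. In ATP synthase, Atp5e (epsilon subunit) was at 319, 418, 332 and 2320.4 CPM and the catalytic subunit Atp5b at 2551, 2252, 2264 and 2477 CPM. Cox7a1, a subunit of cytochrome oxidase in muscle, was at 138, 182, 162 and 1355 CPM and Cox4i1 at 598, 712, 774 and 2236 CPM. Replicate 6 was several-fold above the rest for Ndufb8, Atp5e and Cox7a1 and within the range of the others for Atp5b. Most members differed less, with a median fold of 1.85 in complex I and 2.07 in complexes II to V. Mb, the oxygen store myoglobin, was at 1698, 1375, 866 and 3720.2 CPM and Ldhb, the lactate dehydrogenase of oxidative tissue, at 118, 61.6, 63.3 and 340.3 CPM. Both were highest in replicate 6.

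The matrix enzymes of the tricarboxylic acid cycle were steady by comparison. In that list 2 of 21 genes differed at least 2-fold, against 27.1% of all genes, with a median fold of 1.26. Citrate synthase (Cs) was at 730.1, 635, 731 and 662 CPM. The 2 exceptions were Idh2, the NADP-dependent isocitrate dehydrogenase, at 232, 144, 131 and 519.8 CPM, and Mpc2, a subunit of the pyruvate carrier, at 174, 173, 171 and 390.3 CPM. Slc25a4, the carrier that exchanges ADP for ATP, was at 3573, 3430.2, 3224 and 4305 CPM. In fatty acid oxidation, 17 of 23 genes were highest in replicate 6, against 18.3% of all genes. The number that differed at least 2-fold, 8 of 23, and the 4 of 23 without replicate 6 were near the shares of all genes (27.1% and 15.9%). Fabp3, the fatty acid binding protein of oxidative muscle, was at 259, 265, 144 and 785 CPM, and Lpl, the lipase on capillaries that fat cells also make, at 353, 215, 903 and 701 CPM, highest in replicates 4 and 6.

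Ribosomal protein genes were also mostly highest in replicate 6. Of 47 cytosolic ribosomal protein genes, 31 differed at least 2-fold, 35 were highest in replicate 6 and 44 were lowest in replicate 2, against 27.1%, 18.3% and 30.4% of all genes. Length centring left 31 of 47 highest in replicate 6 (25.9% of all genes were) and 24 at least 2-fold apart (18.4% of all genes were). Without replicate 6, 8 of 47 differed at least 2-fold, near the 15.9% of all genes. Rplp0 was at 763, 826, 802 and 1839 CPM, Rps14 at 300.4, 384, 393 and 2951 CPM and Rpl4 at 546, 607, 597 and 524 CPM. Replicate 6 was about level with the others for Rpl4 and several times higher for Rps14. Genes of the list with a pseudogene copy can share reads with it, and the summed share of the copies (0.645, 0.785, 0.877 and 1.57% of the CPM) and of their genes (0.485, 0.614, 0.674 and 1.60%) were both highest in replicate 6. Of the elongation factors, Eef1a2, the form of the elongation factor used by adult muscle, was at 2086, 2211, 2015 and 2271 CPM and Eef2 at 1688, 1670.5, 1635 and 1453 CPM. Eef1a1, the form of most other cells, was at 307, 310.4, 773 and 522 CPM, highest in replicate 4. In the proteasome list 3 of 31 genes differed at least 2-fold, against 27.1% of all genes. None did without replicate 6, against 15.9% of all genes. All 3 were highest in replicate 6, as were 18 of the 31, against 18.3% of all genes. Psma7, a subunit of the core particle, was at 85.1, 82.9, 87.6 and 283 CPM and Psmd2, of the cap, at 286, 253, 272 and 243 CPM.

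Gene length moved with these patterns. Exonic length, the summed length of all exons of a gene, divided the 12904 genes with a length into 5 bins of equal size. Among the shortest genes (66 to 1644 bases), the median deviation of log2(CPM + 1) from the gene's mean over the libraries was -0.27, -0.10, 0.06 and 0.18. Among the longest (5434 bases and more) it was 0.13, -0.11, 0.31 and -0.38. Replicate 6 was thus the highest library for 50.3% of the shortest genes and 3.72% of the longest. Replicate 2 was lowest for 60.9% of the shortest and 7.79% of the longest. In the 86 genes of up to 600 bases the median deviation of replicate 6 was 0.48 and 58 were highest there. Several of the lists that were highest in replicate 6 were short, with a median exonic length of 983 bases for complex I, 1044 for ribosomal proteins and 1243 for slow fibre genes. The fatty acid oxidation list was longer, with a median of 2080 bases. Neb (24019 bases) and Ryr1 (15445 bases), which were lowest there, are long. Centring each library on the median deviation of its length bin removes the trend between the 5 bins but not within them: the shortest bin was shifted by 0.18 for replicate 6, against a median deviation of 0.48 for the genes of up to 600 bases. The centred counts given here come from that step unless 50 bins are named. The part of length in these differences was not tested beyond it.

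**Figure D3:**
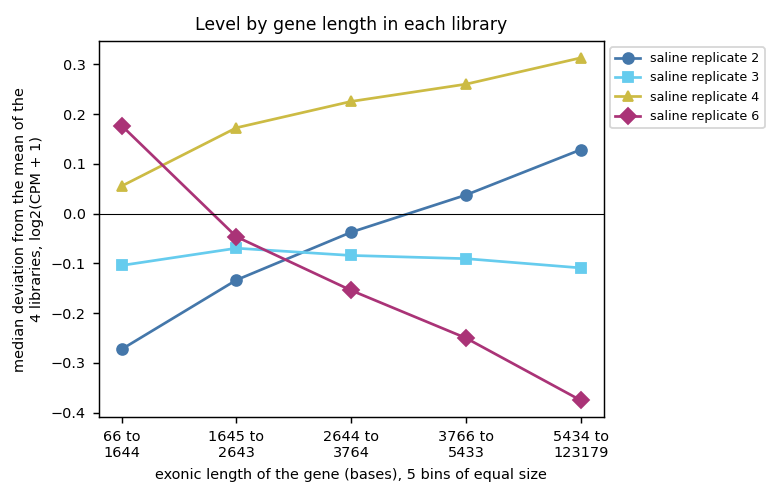
Median deviation of log2(CPM + 1) from the gene's mean over the 4 saline libraries, for 5 bins of exonic length of equal size, with 1 line per library. The line of replicate 6 falls from 0.18 in the shortest bin to -0.38 in the longest, and that of replicate 2 runs from -0.27 to 0.13.

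Over all genes the libraries differed well beyond counting error. The median SD of log2(CPM + 1) was 0.31, and the median coefficient of variation fell from 38.1% in the lowest of 5 level bins to 17.9% in the highest, where counting alone would give 11.3% and 1.63%. At least a 2-fold range was found for 3550 genes (27.1%) and a 4-fold range for 709 (5.41%). Replicate 4 was the highest library for 54.5% of genes and replicate 6 the lowest for 42.4%. Median-of-ratios scaling lowers replicate 4 by 0.24 on the log2 scale. It left replicate 4 the highest for 3848 genes, little above replicate 6 (3683) and replicate 2 (3652), so most of that lead went with the scaling. Leaving out replicate 4 brought the number with a 2-fold range to 1526 (11.6%), leaving out replicate 6 to 2090 (15.9%), and leaving out both to 238 (1.81%). Replicates 2 and 3 were the closest pair, with those 238 genes 2-fold apart, and replicates 4 and 6 the farthest, with 2326. In a principal component analysis the first component, with 58.4% of the variance, set replicate 4 against the other 3, and the second, with 32.8%, set replicate 6 against replicate 2.

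Genes of fat cells and slow fibres stood high among the most variable. Of the 100 genes with the largest SD among those with a mean of at least 10 CPM, 75 were highest in replicate 4 and 22 in replicate 6. Of all genes 54.5% and 18.3% were, and of the 709 genes with a 4-fold range 493 and 177 were. A gene low elsewhere can pass the filter through its highest library, so these counts depend on the selection. Of the 100 genes, 14 belonged to the adipocyte list and 9 to the slow fibre list, and 68 were in none of the lists. The largest SD belonged to Nnat, which encodes the membrane proteolipid neuronatin, at 0.279, 7.43, 311 and 31.3 CPM. Scd1, the desaturase that makes monounsaturated fat, came next with 45.00, 42.1, 3525 and 199 CPM. Pck1, which supplies glycerol backbones in fat cells, was at 4.70, 3.54, 300.2 and 9.95 CPM, and Rasd1, a small GTPase induced by glucocorticoids, at 0.356, 1.47, 112 and 2.95 CPM. In all of these replicate 4 was far above the other 3 libraries. Klhdc7a (0.457, 0.904, 50.6 and 1.66 CPM) and Tmem45b (0.889, 1.33, 62.7 and 5.41 CPM), of less certain role, had the same order of libraries at the top.

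**Figure D4:**
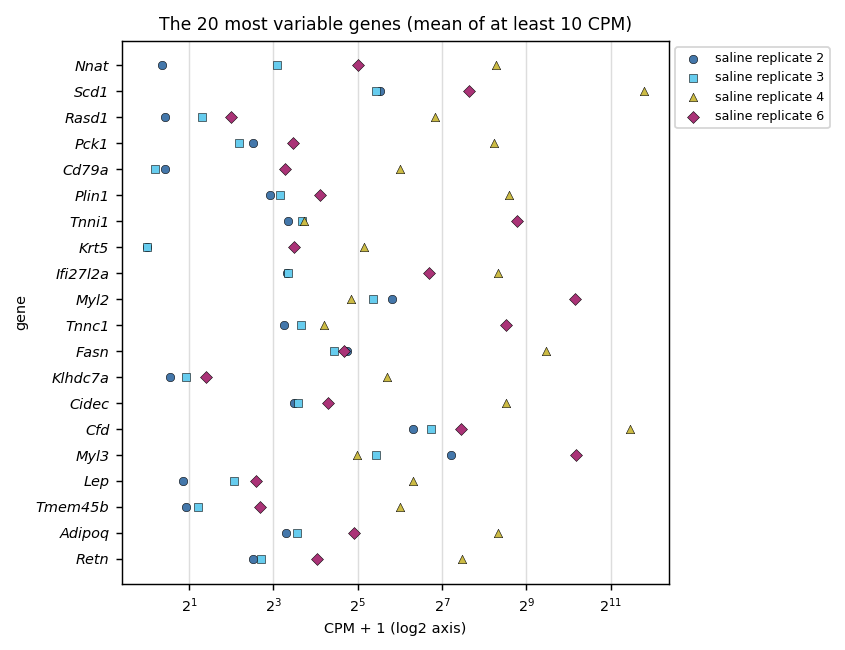
CPM + 1 on a log2 axis of the 20 genes with the largest SD of log2(CPM + 1) among genes with a mean of at least 10 CPM, with 1 symbol per saline library. Replicate 6 is the highest library in the slow fibre genes Tnni1, Myl2, Tnnc1 and Myl3, and replicate 4 in all the others drawn.

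All 21 genes of the adipocyte list with a mean of at least 1 CPM differed at least 2-fold and all were highest in replicate 4, against 27.1% and 54.5% of all genes. Adipoq, the hormone adiponectin, was at 8.76, 10.8, 319.8 and 28.8 CPM and Plin1, which coats the lipid droplet of fat cells, at 6.58, 7.89, 381 and 16.2 CPM. Cidec, which fuses lipid droplets, was at 10.2, 10.9, 362 and 18.7 CPM and Lep, the hormone leptin, at 0.813, 3.20, 78.4 and 5.03 CPM. Cfd, the secreted protease adipsin, was at 78.1, 105, 2811 and 175 CPM and Retn, the hormone resistin, at 4.75, 5.53, 175 and 15.4 CPM. Fasn, fatty acid synthase, was at 25.7, 20.7, 708 and 24.6 CPM, with the other 3 libraries close together. The adipocyte list summed to 0.242, 0.241, 1.46 and 0.240% of the CPM. That sum holds Car3, a carbonic anhydrase that both fat cells and muscle fibres express, at 1677, 1614, 2430.0 and 1137 CPM. None of the measured genes of the list was at 0 in any library. Length centring left all 21 highest in replicate 4 (30.1% of all genes were). Without replicate 4, 10 of 21 still differed at least 2-fold, against 11.6% of all genes, and in that comparison replicate 6 lay above replicates 2 and 3 for genes such as Scd1 and Adipoq.

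Immune markers followed the same library. The 7 genes of MHC class II, which presents peptides to helper T cells, were all highest in replicate 4 and lowest in replicate 2. Of all genes 54.5% and 30.4% were. All 7 differed at least 2-fold, against 27.1% of all genes, and 5 did without replicate 4, against 11.6%. Cd74, its invariant chain, was at 61.8, 87.8, 403 and 152 CPM and H2-Ab1 at 26.7, 36.7, 179 and 82.3 CPM. B cells were marked by Cd79a, part of the B cell receptor complex, at 0.356, 0.147, 62.9 and 8.72 CPM. Igkc, the constant part of the kappa light chain, was at 3.88, 9.32, 168 and 37.7 CPM, whereas Ighm, the heavy chain of IgM, ran differently, at 350.1, 363, 326 and 189 CPM. All 8 T and NK cell genes with a mean of at least 1 CPM were highest in replicate 4, against 54.5% of all genes. Without it 6 of them differed at least 2-fold, against 11.6%. The list summed to 0.000252, 0.000232, 0.00412 and 0.00142% of the CPM. Its members thus pass the filter on the mean mainly through replicate 4, and the counts carry that selection. Their levels were low: Cd3e, of the T cell receptor complex, was at 1.91, 1.47, 8.24 and 2.89 CPM.

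Of 21 macrophage genes, 15 differed at least 2-fold and 19 were highest in replicate 4, against 27.1% and 54.5% of all genes. After length centring 10 differed at least 2-fold (18.4% of all genes did) and 17 were highest there (30.1%). Adgre1, the F4/80 antigen, was at 2.67, 2.76, 20.8 and 3.72 CPM, C1qa, a complement component made by tissue macrophages, at 15.6, 22.6, 54.2 and 23.4 CPM, and Lyz2, lysozyme, at 46.9, 52.8, 99.4 and 122 CPM. Without replicate 4, 2 of the 21 macrophage genes differed at least 2-fold, against 11.6% of all genes. The mast cell protease Mcpt4 was at 3.94, 8.86, 23.3 and 12.9 CPM. Ifi27l2a, an interferon-induced gene, was at 8.97, 9.15, 319 and 102 CPM, high in replicates 4 and 6, but of the 19 interferon genes 5 differed at least 2-fold, near the share of all genes.

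**Figure D5:**
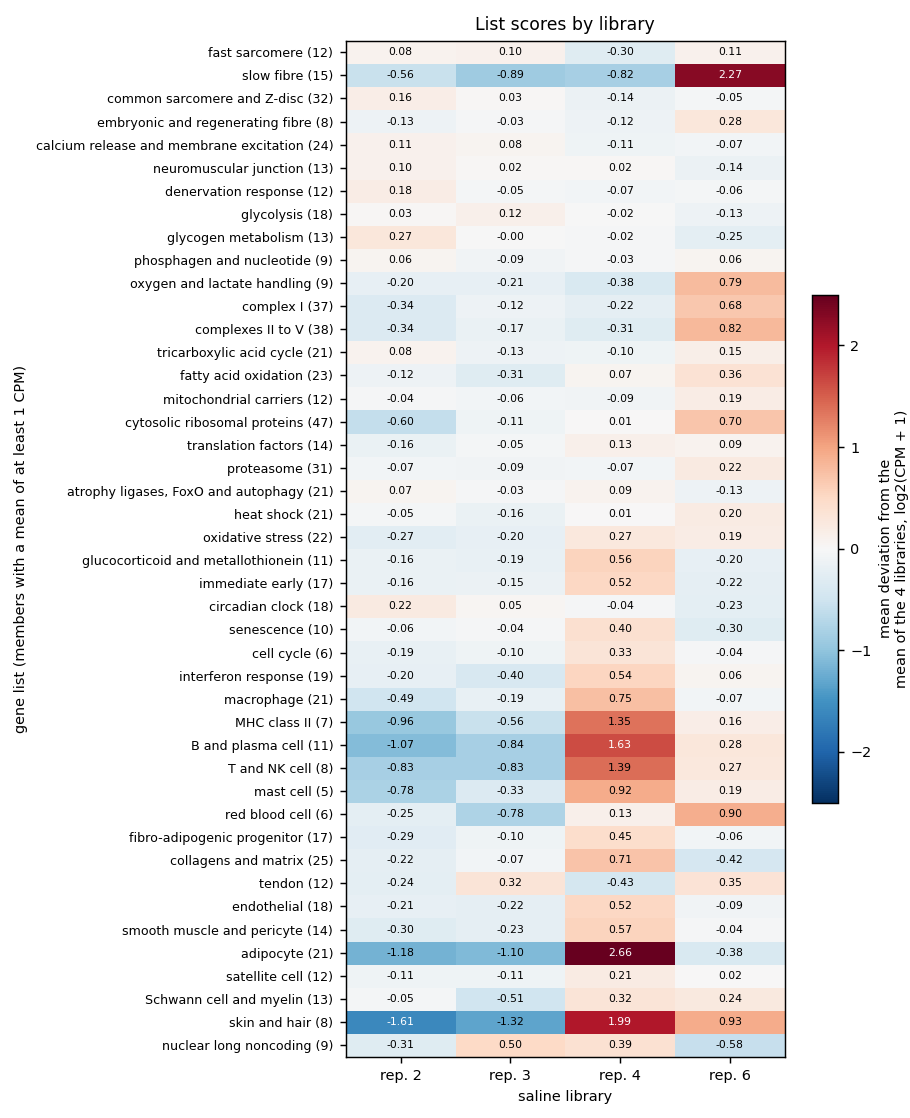
Score of each gene list in each saline library, the mean over the members with at least 1 CPM of the deviation of log2(CPM + 1) from the mean of the 4 libraries; the number of members is in parentheses and only lists with 5 or more are drawn. The adipocyte list stands at 2.66 in replicate 4 and the slow fibre list at 2.27 in replicate 6, while glycolysis stays between -0.13 and 0.12.

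Stroma and vessels were also mostly highest in replicate 4. Of 25 genes for collagens and matrix, 22 were highest in replicate 4 (54.5% of all genes were). At least a 2-fold difference was found for 13 (27.1% of all genes), and for none without replicate 4 (11.6% of all genes). Length centring left 20 of 25 highest in replicate 4, against 30.1% of all genes. In replicate 6, 17 of 25 were lowest, against 42.4% of all genes and 72.4% of the longest genes, and the list has a median exonic length of 5930 bases. Col3a1, a fibrillar collagen, was at 59.5, 82.3, 183 and 51.4 CPM, and Sparc, a matrix protein that binds collagen, at 120.2, 142, 335 and 140.3 CPM. Of 18 endothelial genes, 15 were highest in replicate 4 and 5 differed at least 2-fold, a share close to the 27.1% of all genes. Pecam1, the junction protein of endothelium, was at 56.8, 55.4, 84.6 and 57.7 CPM and Cdh5, its cadherin, at 71.8, 48.7, 86.3 and 57.5 CPM. Fabp4, which capillaries and fat cells both make and which stood in both lists, was at 125, 153, 1543 and 256 CPM. Of the fibro-adipogenic progenitor markers, Dcn (decorin) was at 218, 197, 236 and 289.6 CPM, with no library far from the rest, and Gsn, the actin-severing gelsolin, at 686, 814, 3562 and 1009.7 CPM, highest in replicate 4. Tendon genes ran in another order: Thbs4 was at 51.3, 67.4, 36.1 and 107 CPM, and Scx, the transcription factor of tendon, at 9.68, 18.99, 5.58 and 11.8 CPM, both lowest in replicate 4.

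Skin and blood were present unevenly. The 8 skin genes with a mean of at least 1 CPM were all highest in replicate 4, against 54.5% of all genes. All 8 differed at least 2-fold without it, against 11.6%, with replicate 6 then highest for Krt5 and Krt14. The skin list summed to 0.000216, 0.000628, 0.0132 and 0.00583% of the CPM. Its members thus pass the filter on the mean mainly through replicates 4 and 6, and the counts carry that selection. Krt5, a keratin of the basal layer, was at 0, 0, 34.5 and 10.2 CPM. Krt14, its partner, was at 0, 0, 20.6 and 9.53 CPM and Lor, of the cornified layer, at 0.152, 0.0733, 13.5 and 9.86 CPM. Their part in the other differences of replicates 4 and 6 was not tested. Of the globins, Hbb-bs was at 153, 79.6, 180.0 and 1121 CPM and Hba-a1 at 80.7, 55.6, 129 and 155 CPM, so the beta chain was far higher in replicate 6 than elsewhere and the alpha chain was near its level in replicate 4. Near-identical copies of the globin genes can share reads, and how such reads were counted is not stated, so their single values are uncertain.

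Most markers of satellite cells and regenerating fibres named here had few reads. The satellite cell list as a whole held 0.433% ± 0.0504 of the CPM, mainly through members not named in this paragraph. Pax7, the factor that marks satellite cells, was at 0.990, 1.44, 1.32 and 1.18 CPM, Cdh15, a cadherin of muscle precursors, at 18.8, 21.8, 19.8 and 18.7 CPM and Myod1, which drives muscle differentiation, at 24.7, 32.3, 39.6 and 29.9 CPM. Myf5, an early factor of the same cells, was at 0.787, 0.782, 0.828 and 0.553 CPM. Of the 14 genes of the satellite cell list with a value, 12 reached 1 CPM, as did 13114 of all 18269 genes. Of these 3 differed at least 2-fold, near the 27.1% of all genes. Myh3, the embryonic myosin heavy chain that new fibres make first, was at 1.17, 1.22, 1.57 and 9.85 CPM, and Myh8, the perinatal chain, at 2.68, 4.35, 4.99 and 2.15 CPM. Replicate 6 was apart for Myh3 and lowest for Myh8. The fusion genes Mymk and Mymx, and Chrng, the fetal receptor subunit, stayed below 1 CPM on average. Actc1, the actin of heart and of young fibres, was at 162, 71.3, 55.5 and 56.8 CPM, highest in replicate 2. Cell cycle genes were low: 6 of the 15 with a value reached 1 CPM, and the proliferation markers Mki67 and Top2a were not among them. None of the 6 differed at least 2-fold, against 27.1% of all genes, but 6 genes are too few to set against that share. In the nerve, 12 of the 13 Schwann cell genes were lowest in replicate 3, against 20.8% of all genes.

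Of 9 nuclear long noncoding RNAs, 6 differed at least 2-fold, against 27.1% of all genes. Malat1, a nuclear long noncoding RNA, was at 131, 426, 360.0 and 49.5 CPM, and Neat1, which builds paraspeckles, at 468, 1231, 1093 and 339 CPM, both higher in replicates 3 and 4 than in 2 and 6. The ribosomal RNA gene CT010467.1 was at 4254, 10639, 6878 and 3139 CPM with the same pair of libraries on top. H19, an imprinted noncoding RNA, was at 346, 305, 89.96 and 202 CPM, lowest in replicate 4. Among immediate early genes 11 of 17 were highest in replicate 4, near the 54.5% of all genes. In that list 8 differed at least 2-fold, against 27.1% of all genes, and without replicate 4 it was 2, close to the 11.6% of all genes. Egr1, a transcription factor induced within minutes of a stimulus, was at 17.98, 15.8, 78.2 and 12.9 CPM, and the nuclear receptor Nr4a1 at 154, 107, 139 and 109 CPM. The glucocorticoid target Tsc22d3 was even, at 173, 153, 179 and 182 CPM, and the metal-binding Mt1 was at 11.2, 20.7, 64.8 and 21.02 CPM. Of the clock genes, Dbp was at 131, 104, 56.6 and 126 CPM and Nr1d1 at 175, 199.9, 186 and 146 CPM, and 3 of 18 differed at least 2-fold, below the share of all genes. Among senescence genes, Cdkn1a was at 30.8, 23.3, 30.5 and 22.7 CPM and Cdkn2c, a cell cycle inhibitor, at 19.7, 21.6, 58.5 and 21.7 CPM, apart in replicate 4.

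At the other end were genes whose 4 values nearly coincided. The smallest SD among genes with a mean of at least 10 CPM belonged to Bckdk, the kinase that restrains breakdown of branched-chain amino acids, at 182, 181, 182 and 178 CPM. Gstm4, a glutathione transferase, was at 17.1, 16.9, 16.7 and 16.8 CPM and Timm44, of the mitochondrial import motor, at 50.5, 51.9, 51.7 and 52.5 CPM. The other genes of the 10 steadiest were Bfar, Mtfr1l, Fahd1, Ociad1, Dhodh, Cep19 and Eif3c, with highest libraries 1.02 to 1.04 times the lowest. That near coincidence belongs to the CPM scale: the SD of log2(CPM + 1) of Bckdk was 0.012, but 0.169 after median-of-ratios scaling and 0.158 after length centring, and that of Gstm4 was 0.012, 0.173 and 0.144. Common reference genes of quantitative PCR, a list of 17 added after the values were seen, were not all steady: 6 differed at least 2-fold, 35.3% of the list against 27.1% of all genes. Rpl13a was at 313, 373, 500.3 and 2382 CPM and Actb, beta-actin of nonmuscle cells, at 215, 258, 762 and 318 CPM, whereas Sdha was at 884, 681, 813 and 690.2 CPM.

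Single libraries stood apart from the other 3 by Dixon's ratio, the gap to the nearest library over the whole range, in 1086 genes (8.28%), where chance gives about 1 in 20. Replicate 4 was the high library in 588 of them (4.48% of all genes) and replicate 6 in 256 (1.95%), while replicate 6 was the low one in 113 (0.862%). The remaining cases were few, and examples outside the lists were chosen after their values were seen. Mybph, a myosin binding protein, was high in replicate 2, at 281, 123, 125 and 132 CPM. Nmrk2, a muscle kinase of NAD synthesis, was low in replicate 4, at 80.1, 71.1, 38.9 and 71.7 CPM. Cebpa, a transcription factor of fat cell differentiation, was high in replicate 4, at 10.1, 13.1, 328 and 18.1 CPM. On the high side of replicate 6, Atp5md, of ATP synthase, was at 139, 160.0, 133 and 1092 CPM and Tomm5, of the outer membrane import pore, at 28.5, 32.3, 35.5 and 217 CPM. Npc1, which exports cholesterol from lysosomes, was low in replicate 6, at 56.4, 50.6, 50.3 and 27.9 CPM.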

How the data were processed

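RNA of 4 tibialis anterior libraries, whose labels give a saline injection, was analysed. FastQC, STAR, DESeq2 and the build mm10 are listed in the submitters' processing notes, without versions or roles. The values used were CPM deposited by the authors, which sum to 1000000 per library over 18269 genes after an added 0.0001 was subtracted. The deposited TPM equal CPM divided by the gene span with introns, as found from the values, and were used only as an alternative. Gene starts matched GENCODE M21, the annotation used here, in 99.4% of genes. How multi-mapping reads were counted is not stated in any label or header used here.

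Depth was read from the steps between low CPM values. Spread was measured on log2(CPM + 1) over genes with a mean of at least 1 CPM, as the SD, the ratio of the highest to the lowest library and Dixon's ratio, called above its critical value for 4 samples. Length-scaled values are CPM divided by exonic length and rescaled to a sum of 1000000. Length centring subtracts each library's median deviation within 5 bins of exonic length. Pseudogenes with a mean of at least 10 CPM were aligned to protein-coding transcripts with blastn 2.17.0, keeping matches over at least 80% of the pseudogene. The calculations used Python 3.11.15, pandas 2.3.3 and numpy 2.4.6 and were tested on simulated data.

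The named genes are the 30 with the highest mean CPM, the 20 with the largest and the 10 with the smallest SD among genes with a mean of at least 10 CPM, and members of 46 gene lists, some of which are not reported here. The members and lists were chosen with earlier results of these data known. A list of PCR reference genes was added after the values were seen. Alternatives covered length scaling, the TPM table, pseudocounts, filters, median-of-ratios scaling, length centring and leaving out libraries. The other 7 libraries were left out because no treatment is compared.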

Additional observations from a re-analysis of the deposited data

Results flagged for a closer look

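Of 231 values that were measured once in each of the 4 saline libraries, 51 had 1 library apart from the other 3. The measure is the gap between that library and its nearest neighbour over the whole range, called when above Dixon's critical value for 4 samples, and it stands in parentheses below. Chance alone gives about 1 in 20 for each value. The values are not independent of each other, since genes of 1 cell type move together and some were chosen for their spread.

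Replicate 6 was apart on the high side for the share of CPM held by the 5 mitochondrial lists together (0.980), the slow fibre list (0.951), the oxygen and lactate handling list (0.969), the complex I list (0.902), the complexes II to V list (0.947), the proteasome list (0.951), the pseudogenes closest to nuclear genes (0.909) and the ribosomal protein genes with a copy (0.830). It was also apart for the share of each isoform family held by Myh7 (0.977), Tnni1 (0.984), Tnnc1 (0.968), Tnnt1 (0.975) and Atp2a2 (0.880), and on the low side for that held by Myh4 (0.942). Among single genes, on log2(CPM + 1), it was highest and apart for 13. They included Atp5e (0.864), Atp5md (0.913), Cox7a1 (0.879), Mpc2 (0.983), Myh3 (0.893) and Myh7 (0.855). The others were Mymx (0.912), Ndufb8 (0.941), Psma7 (0.954), Rplp0 (0.911), Rps14 (0.882), Tnni1 (0.932) and Tomm5 (0.893). It was lowest and apart for Atp2a1 (0.842), Bckdk (0.859), Ighm (0.831), Myf5 (0.844), Npc1 (0.838) and Ttn (0.841). Bckdk belongs to the genes with the smallest spread, so that gap is small in absolute terms. It is also near counting error, which has a median coefficient of variation of 1.63% in the highest level bin.

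Replicate 4 was apart on the high side for the share of CPM held by the immediate early list (0.956), the fibro-adipogenic progenitor list (0.858), the endothelial list (0.922) and the adipocyte list (0.999). Fabp4 counts in both the endothelial and the adipocyte list. The share of the progenitor list holds Gsn, which was far higher in replicate 4. Of the 17 members of that list, 10 were highest in replicate 4, near the 54.5% of all genes. After length centring 5 were, near the 30.1% of all genes. Among single genes it was highest and apart for Adgre1 (0.858), Cdkn2c (0.913), Cebpa (0.839), Cidec (0.839), Fasn (0.940), Fbxo21 (0.933), Klhdc7a (0.831), Pecam1 (0.907) and Sparc (0.836). It was lowest and apart for Chrna1 (0.913), Eno3 (0.838) and Nmrk2 (0.834). Replicate 2 was highest and apart for Musk (0.865) and Mybph (0.915). Replicate 3 was apart for none of the genes named here, on either side.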

How the results depend on the processing

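The 86 genes that held 50% of the CPM became 30 after division by exonic length and 12 with the deposited TPM values, which the authors divided by gene spans with introns. Leaving out each library in turn gave 73 to 99. The sarcomere share rose to 25.4% among protein-coding genes only. The mitochondrial share was 6.47% per exonic length and 13.98% with the pseudogenes closest to mitochondrially encoded genes. The share of the glycolysis, glycogen and phosphagen lists was 7.16% per exonic length and 11.8% among protein-coding genes only. The 3550 genes with a 2-fold range became 1636 with a pseudocount of 5, 1650 among genes with a mean of at least 10 CPM and 2337 after centring in 50 length bins. Leaving out each library in turn gave 1526 to 3301, and leaving out replicates 4 and 6 together gave 238. The 1086 genes with 1 library apart became 1717 on linear CPM and 587 with a mean of at least 10 CPM. The number of genes highest in each library depended on the scaling: replicate 4 was highest for 7153 genes, for 3848 after median-of-ratios scaling, and for 3882 and 3909 after centring in 5 and 50 length bins. Replicate 4 was the most frequent in each of these, but by little after median-of-ratios scaling, when replicate 2 was highest for 3652 genes. Replicate 3 was highest for 1027 genes and then for 1931, 2297 and 2317, and replicate 6 for 2396 and, after median-of-ratios scaling, for 3683. Median-of-ratios scaling lowered replicate 4 by 0.24 on the log2 scale against the geometric mean of the libraries. Of the SDs of 60 named genes, 25 moved by more than 1.5 times under that scaling, 23 under length centring, 19 without replicate 4 and 15 without replicate 6. The cause was not tested for any of these, beyond the smaller number of genes or libraries that a filter leaves.

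No paired analysis was possible because all 4 libraries belong to 1 group and no result comes from a test. The alternatives with protein-coding genes only, with the mitochondrial copies, without replicates 4 and 6 together and with 50 length bins were chosen after seeing the data. With 1 group of 4 libraries, preparation, animal and tissue sampled cannot be told apart. At every level of expression the median counting error was small beside the median spread, so depth limited mainly genes near 1 CPM. Genes picked for the smallest SD are an exception, since the values of Gstm4 lay closer together than counting error. Counts could not be rebuilt, since only 75.1% to 78.0% of low values came out as whole reads within 0.1 read.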

Other observations

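Heat shock genes were about as variable as all genes: 4 of 21 differed at least 2-fold between the highest and the lowest saline library, against 27.1% of all genes, with a median fold of 1.57 against 1.62. Hsp90ab1, a cytosolic chaperone, was at 1212, 1045, 1167 and 1074 CPM in replicates 2, 3, 4 and 6, and Hspa8, the constitutive HSC70, at 757, 599.5, 739.7 and 659 CPM. Cryab, which guards desmin and the Z-disc, was at 482, 434, 421 and 842 CPM and Hspb7 at 297, 279.9, 136 and 461 CPM, both highest in replicate 6. Hspe1, the mitochondrial chaperonin 10, was at 36.4, 47.9, 49.8 and 169 CPM. Of 22 antioxidant genes, 10 were highest in replicate 4, fewer than the 54.5% of all genes, and 9 in replicate 6, against 18.3%. Sod3, the extracellular superoxide dismutase, was at 10.5, 13.1, 69.8 and 17.2 CPM and Gpx3, the secreted glutathione peroxidase, at 194, 268, 699.7 and 215 CPM, highest in replicate 4. Sod2, the mitochondrial form, was at 259, 217, 248 and 241 CPM, and Mgst3, a microsomal glutathione transferase, at 111, 139, 176 and 351 CPM, highest in replicate 6.

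Protein breakdown and the vessel wall add further examples. In the list of atrophy ligases, FoxO factors and autophagy, 4 of 21 genes differed at least 2-fold, against 27.1% of all genes. Sqstm1, the autophagy receptor p62, was at 708, 717, 622 and 684 CPM. Foxo1, a transcription factor of atrophy that fat cells also use, was at 19.5, 14.5, 34.05 and 13.95 CPM and Fbxo21, a ubiquitin ligase subunit, at 14.3, 13.2, 39.7 and 13.6 CPM, both highest in replicate 4. Bnip3, a receptor for mitophagy, was at 211, 173, 208 and 388 CPM, highest in replicate 6. Of 14 smooth muscle and pericyte genes, 9 differed at least 2-fold, against 27.1% of all genes, and 3 did without replicate 4, against 11.6%. The number highest in replicate 4 was 10, against 54.5% of all genes. Acta2, smooth muscle actin, was at 41.1, 55.03, 136 and 56.4 CPM, whereas Rgs5, a marker of pericytes, was at 145, 117, 169.7 and 371 CPM, highest in replicate 6. Creatine kinase isoforms also ran apart: Ckmt2, the mitochondrial enzyme of muscle, was at 996, 737, 712 and 1404 CPM, and Ckb, the brain-type enzyme, at 8.50, 14.5, 39.9 and 17.3 CPM, highest in replicate 4. Angptl4, a secreted inhibitor of lipoprotein lipase, was at 1.83, 1.05, 47.3 and 5.03 CPM, with replicate 4 highest.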
